A study of Mus musculus with 12 samples.

Results

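The mitochondrial genome transcripts are the 37 genes of the count files whose GENCODE mouse name starts with mt-, out of 55416 genes in all. They comprise 2 ribosomal RNAs (mt-Rnr1, the 12S rRNA, and mt-Rnr2, the 16S rRNA), 13 mRNAs and 22 tRNAs. RNA was sequenced from 12 pools of sorted cells of the organ of Corti at postnatal day 0 (P0), 6 of inner hair cells (IHCs) and 6 of outer hair cells (OHCs), the sensory cells of the cochlea. The IHCs were taken as cells with GFP from the Atoh1-GFP reporter, and the OHCs as cells with GFP that were also labelled by TdTomato. TdTomato comes from a reporter at R26 and marks cells in which the Cre of Insm1-GFP-Cre has been active. All 12 pools are labelled WT, and each pool combined cochleae of several newborn mice of both sexes, so a library stands for a pool and not for an animal. The groups compared thus differ by the reporters that mark them, and, per the study's methods, 1 cross of reporter mice was set up to label both cell types. Ribosomal RNA was depleted with RiboZero, and random hexamers primed the cDNA, which was then amplified, so the level of either mitochondrial rRNA is what remained after depletion.

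The mitochondrial genome is a small circle of DNA that is copied into long RNAs from both strands and then cut into its mRNAs, rRNAs and tRNAs, with most cuts made at the tRNAs that lie between the other genes. The rRNAs build the ribosome inside the mitochondrion. The mRNAs code for core subunits of the respiratory chain: complex I (mt-Nd1 to mt-Nd6 and mt-Nd4l), complex III (mt-Cytb), complex IV (mt-Co1 to mt-Co3) and the ATP synthase, complex V (mt-Atp6 and mt-Atp8). All other proteins needed to copy, transcribe and translate this genome are made from nuclear genes. Hair cells have a high energy demand, and mutations in the mitochondrial 12S rRNA are a known cause of hearing loss.

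The 37 genes fill nearly all of the 16299 bases of chrM in GRCm39, and the sequences below show 3 places where the crowding bears on the counts. At chrM:1005-1113 the end of mt-Rnr1 meets mt-Tv, the valine tRNA in capitals, which meets the start of mt-Rnr2 with no base between them. At chrM:7907-7989 the last 43 bases of mt-Atp8 are also the first 43 bases of mt-Atp6, shown in capitals. The proline tRNA mt-Tp, at chrM:15356-15422 on the light strand, is given whole.
mt-Rnr1 to mt-Tv to mt-Rnr2: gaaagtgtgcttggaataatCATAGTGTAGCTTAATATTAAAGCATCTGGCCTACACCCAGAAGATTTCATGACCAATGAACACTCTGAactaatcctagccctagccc
mt-Atp8 and mt-Atp6: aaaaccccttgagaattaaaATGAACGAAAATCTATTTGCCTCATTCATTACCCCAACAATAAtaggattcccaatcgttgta
mt-Tp: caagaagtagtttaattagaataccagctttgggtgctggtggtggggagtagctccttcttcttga

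A stretch of chromosome 1 also bears on the counts, because it repeats part of chrM almost base for base. The minus strand of chr1:24650616-24655265 holds the sequence of chrM:6394-11042, from inside mt-Co1 to inside mt-Nd4, over 4650 and 4649 bases. The copies differ by 1 substitution, T9461C, numbered from the first base of chrM with the chrM base named first, and by the length of a run of A. The substitution, in capitals in the first pair of sequences, is base 3 of mt-Nd3. The run, in capitals in the second pair, holds 8 A on chrM and 9 A on chromosome 1.
chrM around the substitution: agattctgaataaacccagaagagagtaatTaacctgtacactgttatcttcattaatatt
chromosome 1 copy around the substitution: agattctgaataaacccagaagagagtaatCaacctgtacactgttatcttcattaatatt
chrM around the length difference: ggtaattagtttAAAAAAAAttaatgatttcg
chromosome 1 copy around the length difference: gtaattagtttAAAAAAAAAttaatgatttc
These windows are chrM:9431-9491 with chr1:24652168-24652228 and chrM:9809-9840 with chr1:24651819-24651849, all read in the direction of the mt mRNAs. In the whole genome, 18 stretches of at least 100 bases are identical to chrM, the longest of them 3067 bases within this copy.

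The libraries held 31490204 to 44017309 counts on genes in IHCs and 29564827 to 39121988 in OHCs. One IHC library stood apart: nuclear rRNA took 18.6% of the counts on genes in IHC replicate 1, against 1.47% in the lowest IHC library and 2.69% to 6.73% in OHCs, and its TMM normalization factor was 0.486 against 0.902 to 1.23 elsewhere. Reads with more than one alignment made up 14.7% of all lines of its file and 8.05% or less in OHC files. Hair cell markers were high in every library, at 6300 to 9962 summed CPM (counts scaled to a library size of 1000000) over 10 genes in IHCs and 4766 to 6176 in OHCs, and the 6 erythroid markers summed to 3.20 CPM at most. The OHC pools held more endothelial transcripts, with 13.1 to 162 summed CPM over 6 markers against 0.0817 to 3.19 in IHCs. Of these, 5 of 5 tested markers were called higher in OHCs, where 2.44% of all genes were. The IHC pools held more of 6 spiral ganglion neuron markers, with 1018 to 1637 CPM against 308 to 498, and of 6 markers of the greater epithelial ridge, with 834 to 1703 CPM against 271 to 700. Among the tested markers of these lists, 4 of 4 and 2 of 3 were called higher in IHCs, where 3.81% of all genes were. Markers of glia, macrophages and mesenchyme were low, with overlapping ranges and no marker called. Their median sums were 32.4, 6.83 and 30.7 CPM in IHCs and 11.2, 0.979 and 13.5 in OHCs. The 8 supporting cell markers summed to 71.0 to 280 CPM in IHCs and 272 to 436 in OHCs, where the ranges overlapped slightly. The supporting cell markers did not agree. Prox1, which the paper lists as OHC-enriched, averaged 28.6 CPM in IHCs and 217 in OHCs and was called higher in OHCs. Sox2 averaged 71.6 and 26.8 CPM and was called higher in IHCs, and the other tested markers of this list were not called. These sums cannot tell RNA of other cells from expression of the same genes by the hair cells. The paper places the ridge marker Fgf10, for example, in IHCs as well as in other cochlear cells. The part of other cells in the mitochondrial values was not tested.

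Mitochondrial transcripts made up 19.6% to 42.3% of all counts on genes in a library, and this share did not separate the cell types. They took 30.9% ± 8.79 (SD, n = 6) of the counts in IHCs and 27.5% ± 4.38 (n = 6) in OHCs. In IHCs the share was 19.6% in the lowest library, 29.5% at the median and 42.3% in the highest, which was IHC replicate 1, and in OHCs it was 22.0%, 27.4% and 34.1%. The OHC range lay inside the IHC range. The difference in means was -3.31 percentage points (two-sided exact permutation test, p = 0.429, adjusted p = 0.623 over 4 shares), and without IHC replicate 1 it was -1.03. A lower share can come from fewer transcripts or from more of everything else, and in pools the number of cells and the RNA per cell cannot be told apart.

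The 2 rRNAs carried 89.8% of all mitochondrial counts even after rRNA depletion, the 13 mRNAs 10.2% and the 22 tRNAs 0.00227%. The rRNAs took 27.6% ± 8.39 of the counts on genes in IHCs and 24.8% ± 4.24 in OHCs (n = 6 each, exact permutation p = 0.468, adjusted p = 0.623). For the mRNAs the share was 3.22% ± 0.725 and 2.75% ± 0.553 (p = 0.245, exact, adjusted p = 0.623). The mRNA share ran from 2.23% to 4.36% in IHCs and from 1.94% to 3.67% in OHCs. The lowest value was in OHC replicate 1 and the highest in IHC replicate 2, and the groups overlapped in each of these classes. Counts of rRNA per count of mRNA were 8.42 in IHCs and 9.05 in OHCs as geometric means, a log2 difference of 0.10 (exact permutation p = 0.628, adjusted p = 0.706 over 9 ratios).

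**Figure D1:**
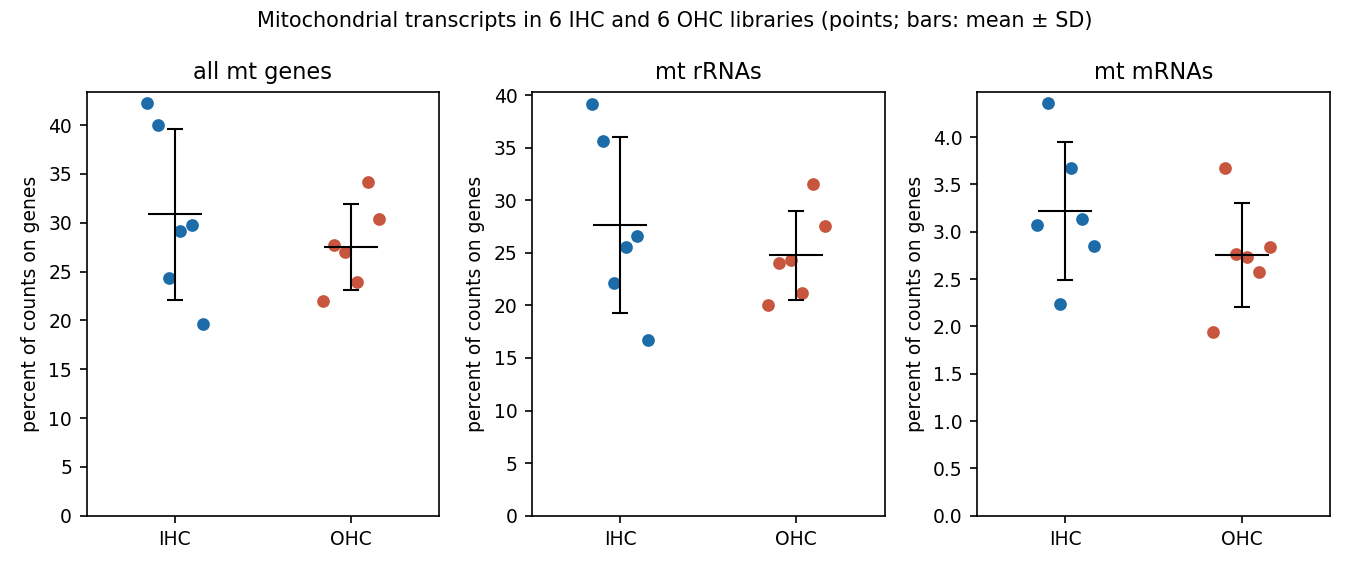
Percent of counts on genes held by all mitochondrial genes, the 2 rRNAs and the 13 mRNAs, with a point for each of 6 IHC and 6 OHC libraries and bars for the mean ± SD. In each panel the cell types overlap, and the IHC libraries spread from 19.6% to 42.3% for all mitochondrial genes against 22.0% to 34.1% in OHCs.

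Shares of rRNA and mRNA were also compared across the pools of each cell type. Over the 6 IHC libraries the log2 shares of the classes had a Pearson r of 0.53 (exact permutation p = 0.274, adjusted p = 0.547) and a Spearman rho of 0.54 (exact p = 0.297, adjusted p = 0.594). Over the 6 OHC libraries r was 0.31 (exact permutation p = 0.569) and rho 0.26 (exact p = 0.658), with the same values after adjustment over the 2 relations. Without the 2 libraries farthest from the median rRNA share, r was 0.88 in IHCs and 0.07 in OHCs over 4 libraries each. No relation between the classes was therefore shown within a cell type at this number of pools.

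The balance between the rRNAs differed between the cell types. Counts of mt-Rnr2 per count of mt-Rnr1 were 1.79, 1.66, 1.24, 1.19, 1.49 and 1.78 in IHC replicates 1 to 6, and 2.36, 2.42, 2.22, 2.44, 2.45 and 1.90 in OHC replicates 1 to 6. The lowest OHC library lay above the highest IHC library. On the log2 scale the ratio was 0.59 ± 0.26 (SD, n = 6) in IHCs and 1.19 ± 0.14 (n = 6) in OHCs, a difference of 0.60 or a 1.52-fold higher ratio in OHCs (two-sided exact permutation test, p = 0.00216, the smallest that this design can give, adjusted p = 0.0195 over 9 ratios). In the 12 repeats that each left out a library, the log2 difference stayed between 0.54 and 0.66, and its adjusted p was at most 0.0390. IHC replicate 1, the library with the most nuclear rRNA, had the highest ratio of its group, 1.79, so that without it the difference was 0.65. Nuclear rRNA, which the same depletion removes, overlapped between the cell types at 1.47% to 18.6% in IHCs and 2.69% to 6.73% in OHCs, and its part in the ratio was not tested.

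Seen singly, both rRNAs were fitted lower in OHCs, the 12S rRNA by more, and neither was called. In CPM on the TMM-normalized library size, mt-Rnr1 stood at 289400, 143777, 96730, 110702, 109947 and 51730 in IHC replicates 1 to 6, and at 48768, 63346, 62491, 56838, 101751 and 87072 in OHC replicates 1 to 6. The highest OHC library lay above the IHC libraries 3 and 6, so the groups overlapped. Its log2 fold change, OHC over IHC, was -0.93 ± 0.30 (SE), with an adjusted p of 0.0694 in edgeR's quasi-likelihood test across 13269 genes. For mt-Rnr2 the values were 517573, 239381, 120313, 131542, 163821 and 92104 in IHCs, and 115107, 153331, 138478, 138663, 249076 and 165493 in OHCs. Apart from IHC replicate 1 these ranges covered much the same levels, and the log2 fold change was -0.40 ± 0.33 (edgeR adjusted p = 0.514). Leaving out IHC replicate 1 turned it to 0.09. Per kilobase of gene the 12S rRNA stood above the 16S rRNA in IHC replicates 3, 4 and 5 and below it in the other 9 libraries, with mean levels of 140015 and 133242 CPM per kilobase in IHCs and 73345 and 101153 in OHCs.

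**Figure D2:**
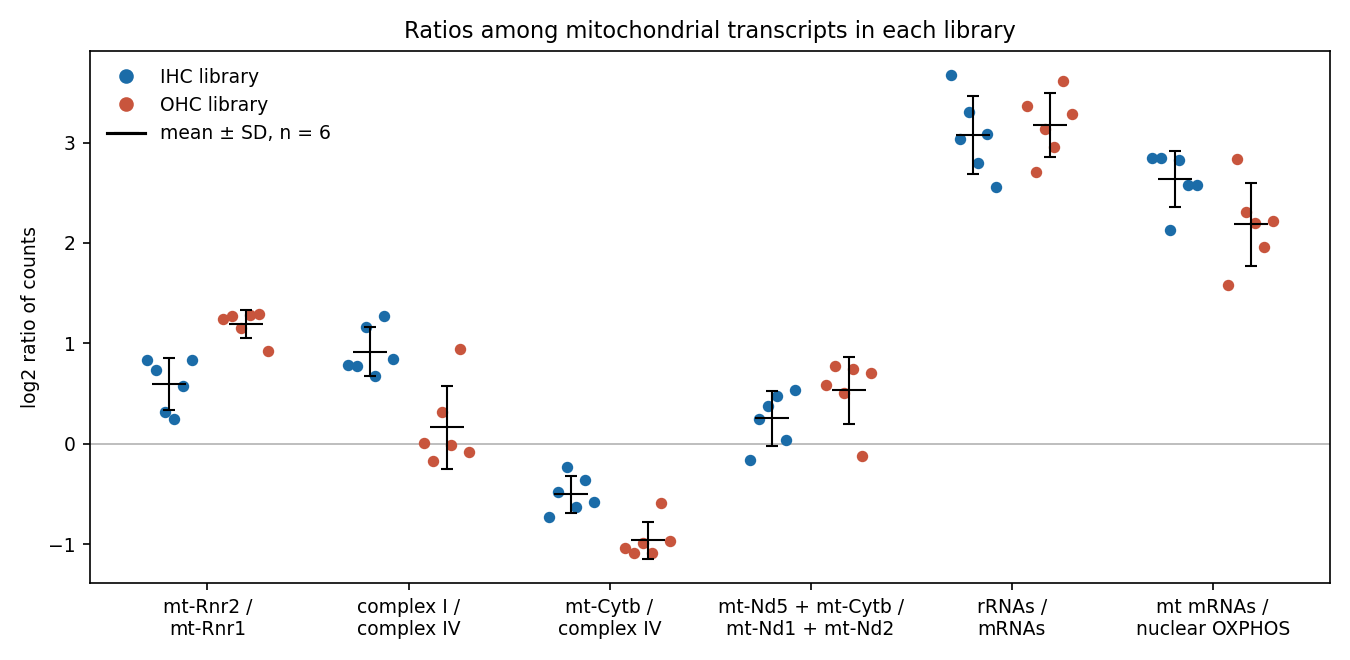
Log2 ratios of counts among mitochondrial transcripts, with a point for each of 6 IHC and 6 OHC libraries and bars for the mean ± SD. The ratio of mt-Rnr2 to mt-Rnr1 separates the cell types without overlap, the ratios to complex IV (nearly all mt-Co1) overlap through OHC replicate 5, and the ratio of rRNAs to mRNAs does not separate them.

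Of the 37 genes, 14 passed the low-count filter and were tested, namely the 2 rRNAs, 11 mRNAs and mt-Tp. The test called 3 of these 14, all higher in IHCs (mt-Nd2, mt-Nd4 and mt-Nd5, which code for subunits of complex I), and 0 higher in OHCs. In DESeq2 7 members were called higher in IHCs (mt-Co2, mt-Atp6, mt-Atp8 and mt-Nd4l beside these 3), where 7.92% of all genes were, and 0 higher in OHCs. Over all 13269 genes tested, 3.81% were called higher in IHCs, 2.44% higher in OHCs and 6.26% in either direction. At an unadjusted p under 0.05 there were 10 of the 14, all higher in IHCs, where 12.4% of all genes were. Among the 10 were mt-Co2, mt-Atp6 and mt-Nd4l. Their counts, like those of mt-Atp8, were near 0 and cannot be read as levels of the transcripts, as set out below. All 14 log2 fold changes were below 0, with a median of -0.82 against -0.04 over all genes tested. In a fit to genes with at least 10 counts in every library, 11 members remained, mt-Atp6 among them. All 11 were below 0, with a median of -0.69 against -0.05 over all genes of that fit. Without IHC replicate 1, 11 of the 14 were below 0 and the median was -0.57 against 0.00. These 14 values come from the same libraries and are scaled by the same library sizes, so they are not independent of each other.

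Of these genes mt-Nd2 had the largest called difference. Its CPM was 6341, 3415, 1527, 1951, 3343 and 1342 in IHC replicates 1 to 6, and 715, 1399, 1122, 966, 1913 and 1212 in OHC replicates 1 to 6. IHC replicates 1, 2, 4 and 5 lay above all OHC libraries, while IHC replicates 3 and 6 lay below OHC replicate 5. The log2 fold change was -1.29 ± 0.32, a 2.45-fold higher level in IHCs (edgeR adjusted p = 0.0203). Without IHC replicate 1 it was -0.93 with an adjusted p of 0.0347, and the call was lost without OHC replicate 1 or OHC replicate 4, at adjusted p = 0.0528 and 0.0523.

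The groups did not overlap for mt-Nd4, and it was the only one of the 14 tested genes of which this was true, against 4.60% of all genes tested. Its CPM was 5668, 4752, 2647, 3675, 3441 and 2785 in the IHC replicates in order, and 1416, 2575, 1968, 2445, 2481 and 2138 in the OHC replicates. The lowest IHC library, 2647, lay just above the highest OHC library, 2575. Its log2 fold change was -0.82 ± 0.21, and it was 1.76-fold higher in IHCs (edgeR adjusted p = 0.0219), and the call was lost only without OHC replicate 1, at adjusted p = 0.0541.

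For mt-Nd5 the CPM was 6411, 5344, 3199, 4740, 4501 and 3817 in IHCs and 1661, 3554, 3025, 2882, 3316 and 2655 in OHCs. Only IHC replicate 3 fell inside the OHC range, below OHC replicates 2 and 5. The log2 fold change was -0.71 ± 0.20, or 1.64-fold (edgeR adjusted p = 0.0397). This call rested on the full set of pools: it held in 5 of the 12 fits that left out a library, with adjusted p from 0.0234 to 0.0853, and was lost without IHC replicates 2, 4 or 5 or OHC replicates 1, 3, 4 or 6. Leaving out OHC replicate 1 left 0 of the 14 genes called.

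The other abundant mRNAs were not called. The smallest difference among mRNAs was in mt-Co1, the catalytic subunit of complex IV, whose CPM was 18980, 13687, 5357, 10713, 7707 and 7081 in IHCs and 6395, 14015, 8323, 10207, 7999 and 10582 in OHCs. The OHC range lay inside the IHC range, and the log2 fold change was -0.14 ± 0.26 (edgeR adjusted p = 0.794) and became 0.10 without IHC replicate 1. For mt-Cytb, the cytochrome b of complex III, the CPM was 11445, 9798, 4554, 6936, 5999 and 4719 in IHCs and 3103, 6600, 4178, 4810, 5300 and 5405 in OHCs. OHC replicates 1 and 3 lay below all IHC libraries, and IHC replicates 1, 2 and 4 above all OHC libraries (log2 fold change -0.56 ± 0.23, edgeR adjusted p = 0.165). The log2 fold change of mt-Nd1 was -0.82 ± 0.28 (edgeR adjusted p = 0.0857), as large as that of mt-Nd4 but with OHC replicate 5, at 7442 CPM, above 4 IHC libraries. The mRNA of mt-Nd6, the only mRNA on the light strand, had 383 ± 175 CPM in IHCs and 248 ± 82.6 in OHCs (log2 fold change -0.63 ± 0.28, edgeR adjusted p = 0.203).

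**Figure D3:**
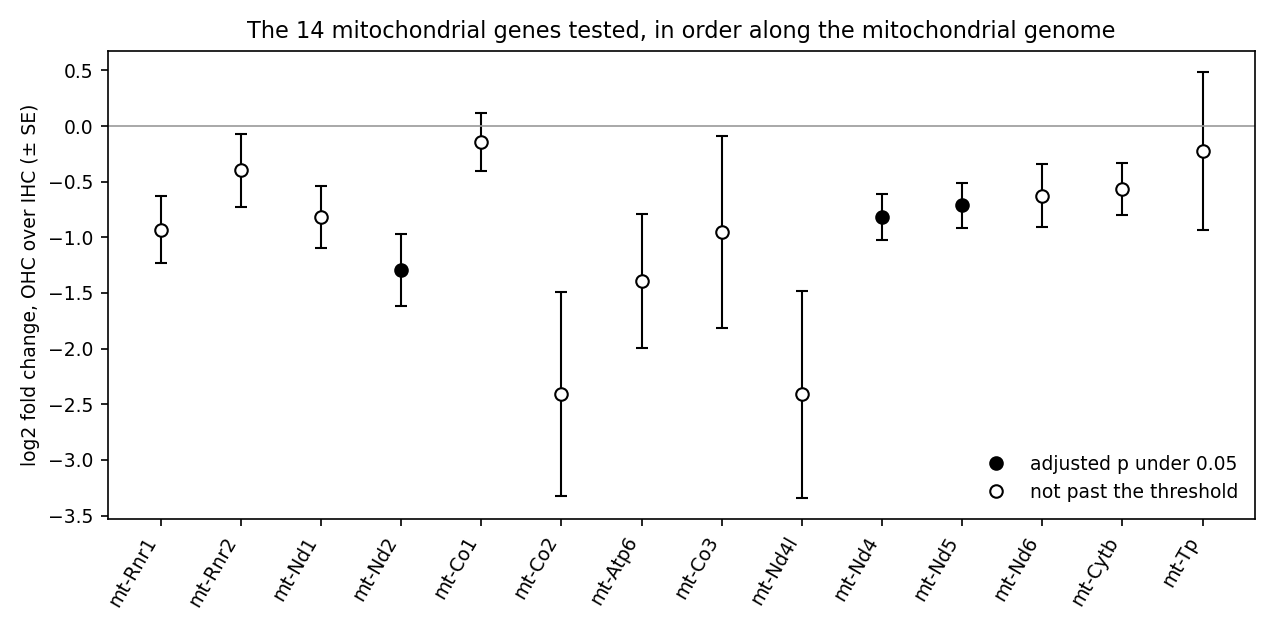
Log2 fold change of OHC over IHC with its SE for the 14 mitochondrial genes tested, in genome order, from the edgeR fit to 6 IHC and 6 OHC libraries. All points lie below 0, filled points are the 3 called genes at -1.29, -0.82 and -0.71, and mt-Co1 and mt-Tp are nearest to 0.

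Within the mRNA pool, where the library size cancels, mt-Co1 took a larger part in OHCs. It made up 30.03%, 29.2%, 24.4%, 30.8%, 23.8% and 28.9% of the mt mRNA counts in IHC replicates 1 to 6, and 40.2%, 42.4%, 36.4%, 40.6%, 27.9% and 40.8% in OHC replicates 1 to 6. All OHC libraries lay above all IHC libraries except OHC replicate 5. The part of mt-Nd2 was 7.62% ± 2.12 in IHCs and 4.80% ± 0.989 in OHCs, and that of mt-Nd4 was 10.6% ± 1.06 and 8.65% ± 0.652 (SD, n = 6 each). IHC replicate 1, at 8.97%, was the only IHC library inside the OHC range of mt-Nd4, 7.79% to 9.72%. For mt-Nd5 the parts were 13.2% ± 2.04 and 11.3% ± 1.10, and for mt-Nd1 20.04% ± 1.32 and 16.9% ± 4.64. The spread of mt-Nd1 in OHCs came from replicate 5, at 25.96% against 13.7% to 17.3% in the others. The parts of mt-Cytb (19.6% ± 1.15 and 19.4% ± 0.945) and mt-Nd6 (1.013% ± 0.158 and 0.983% ± 0.197) were close to each other. These parts add up to 100%, so that a larger part of mt-Co1 lowers the others. Among only the 5 mRNAs with no 200-base stretch repeated elsewhere in the genome, a set chosen after the counts were seen, mt-Nd5 took 21.5% in IHCs and 21.3% in OHCs, mt-Nd1 32.6% and 31.2%, mt-Nd2 12.3% and 8.94%, and mt-Cytb 31.9% and 36.7%.

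Ratios between the complexes were compared next, since they do not depend on library size. Complex I counts per complex IV count were 1.72, 1.70, 2.24, 1.60, 2.41 and 1.79 in IHCs and 1.004, 0.888, 1.24, 0.992, 1.92 and 0.943 in OHCs. OHC replicate 5 lay inside the IHC range and the other 5 OHC libraries below it, with a log2 difference of -0.75, or 1.69-fold in favour of IHCs (exact permutation p = 0.0108, adjusted p = 0.0325 over 9 ratios). The ratio of mt-Cytb to complex IV was 0.705 in IHCs and 0.513 in OHCs as geometric means, a log2 difference of -0.46 (exact p = 0.00649, adjusted p = 0.0292), again with only OHC replicate 5 inside the IHC range. At least 99.9% of the complex IV counts were mt-Co1 in every library, so these ratios compare with mt-Co1 alone. Each lost its call in some fits that left out a library, complex I without IHC replicate 5 or OHC replicates 1, 4 or 6 and mt-Cytb without OHC replicates 1, 4 or 6, at adjusted p = 0.0519 in each case. Without OHC replicate 5 the log2 differences were -0.91 and -0.53, both at adjusted p = 0.00487. Averaging the log2 counts of the genes of a complex, which gives the near-0 mt-Co2 and mt-Co3 the weight of mt-Co1, turned the log2 differences to 0.15 and 0.44 (exact permutation adjusted p = 0.489 and 0.285).

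The ratios given next did not pass the threshold, while that of complex V to complex IV did and is given below with the near-0 mRNAs. Genes far from the heavy-strand promoter (mt-Nd5 and mt-Cytb) against genes near it (mt-Nd1 and mt-Nd2) gave 1.19 in IHCs and 1.45 in OHCs as geometric means, a log2 difference of 0.28 (exact permutation p = 0.134, adjusted p = 0.201). OHC replicate 5 had the second lowest ratio of all 12 libraries, 0.921, and without it the log2 difference was 0.41 with an adjusted p of 0.0195. The light-strand mRNA mt-Nd6 per count of the other mRNAs was 0.0101 and 0.00976, a log2 difference of -0.06 (exact p = 0.732, adjusted p = 0.732). Among the 36 pairs that can be formed from the 9 transcripts with at least 1000 counts in every library, 2 had groups that did not overlap, and both involved mt-Rnr2. Beside mt-Rnr1 the other was mt-Nd2, with 49.0 to 81.6 counts of mt-Rnr2 per count of mt-Nd2 in IHCs (median 69.4) and 110 to 161 in OHCs (median 133). Of all single genes tested, 4.60% had groups that did not overlap in CPM, and no such share was computed for pairs of other genes. The 36 pairs share transcripts and were formed after values were seen, so their count shows no trait of mt-Rnr2.

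**Figure D4:**
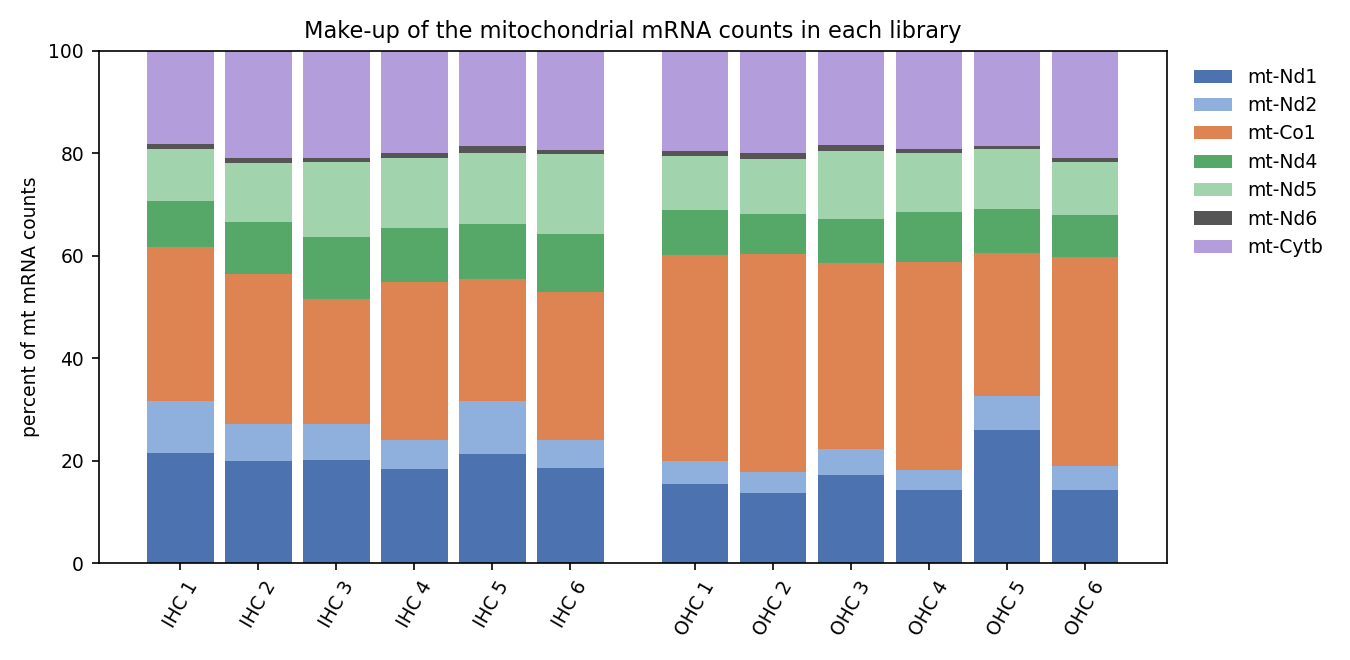
Percent of the mitochondrial mRNA counts taken by each of the 7 abundant mRNAs, as stacked bars for the 6 IHC and 6 OHC libraries (the other 6 mRNAs together hold 0.0698% at most and are not drawn). The mt-Co1 segment is 23.8% to 30.8% in IHCs and 36.4% to 42.4% in OHC libraries other than OHC replicate 5, where it is 27.9% and mt-Nd1 reaches 25.96%.

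By level per kilobase the order of the 9 abundant transcripts was stable at its ends. In all 12 libraries the rRNAs stood at the top, followed by mt-Nd1, mt-Co1 and mt-Cytb in varying order, then by mt-Nd2, mt-Nd4 and mt-Nd5, and mt-Nd6 stood last. Among these 9, the mRNA with the most counts per kilobase was mt-Nd1 in all IHC libraries except replicate 4. In all OHC libraries except replicate 5 it was mt-Co1. Of the 200-base windows touching mt-Co1 and mt-Nd4, 27.5% and 55.5% occur identically elsewhere in the genome, and reads there may not be counted. The order is therefore one of counts and cannot be read as an order of transcript levels. Mean levels of mt-Nd1, mt-Co1 and mt-Cytb were 7897 ± 3648, 6853 ± 3275 and 6330 ± 2455 CPM per kilobase in IHCs, and 4482 ± 1761, 6205 ± 1720 and 4283 ± 1039 in OHCs. In IHCs these neighbours differed by less than the SD of either, as did mt-Nd1 and mt-Cytb in OHCs, where mt-Co1 stood above them by about 1 SD. The levels of mt-Nd2, mt-Nd4 and mt-Nd5 were 2877 ± 1801, 2778 ± 852 and 2560 ± 621 CPM per kilobase in IHCs and 1176 ± 395, 1575 ± 316 and 1562 ± 363 in OHCs, with neighbours no more than about 1 SD apart.

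The other 6 mRNAs were near 0 in every library. Together mt-Co2, mt-Atp8, mt-Atp6, mt-Co3, mt-Nd3 and mt-Nd4l held 143 to 675 counts per library, 0.0162% to 0.0698% of the mt mRNA counts, although they code for subunits of the same complexes as the abundant mRNAs and lie on the same strand between mt-Co1 and mt-Nd4. All 6 lie whole within the stretch that is repeated on chromosome 1. Of the 200-base windows that touch each gene, the length of the cDNA fragments, 100% of those of mt-Co2, mt-Atp8 and mt-Atp6 occur identically elsewhere in the genome, 86.9% of mt-Co3, 71.2% of mt-Nd4l and 31.1% of mt-Nd3. Among the abundant mRNAs the shares were 55.5% for mt-Nd4 and 27.5% for mt-Co1, and 0% for mt-Nd1, mt-Nd2, mt-Nd5, mt-Nd6, mt-Cytb and the rRNAs. Reads that align equally well to more than one place were not assigned to a gene by the counting, and levels of the 6 genes, and of mt-Co1 and mt-Nd4 in part, cannot be read from these counts as levels of the transcripts. How much of each gene was lost in this way was not tested. The fewest counts, 0 to 5 per library, were on mt-Nd3, which has the smallest share of identical windows among the 6. That share counts exact matches only. The other windows of mt-Nd3 also lie in the copy and differ from it by the substitution or the run of A. The share therefore does not rank mt-Nd3 as the gene least affected by the copy.

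Of 7 pseudogenes annotated on this copy, 5 took more counts in every library than the mitochondrial gene they repeat, which were mt-Co2, mt-Atp6, mt-Co3, mt-Nd3 and mt-Nd4l. The other 2 took fewer in every library, at 154 to 527 counts for Gm29216, against at least 204680 for mt-Co1, and 166 to 652 for Gm28439, against at least 65661 for mt-Nd4. The 2 with the most counts, chosen after their values were seen, are given in full. The chromosome 1 pseudogene Atp6-ps (chr1:24653055-24653732) held 1398 to 2697 counts in IHCs and 731 to 2175 in OHCs, against 239 to 467 and 117 to 327 for mt-Atp6. Gm28661, at chr1:24653966-24654646, the place of mt-Co2, held 354 to 2740 counts in IHCs and 373 to 567 in OHCs, against 19 to 93 and 4 to 20 for mt-Co2. Counts of these near-identical genes are uncertain, since reads that align equally well to both were assigned to neither. How the remaining reads came to be placed on one or the other was not tested.

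Differences between the cell types in these near-0 mRNAs were large as fold changes and did not pass the test. Counts of mt-Co2 were 93, 61, 22, 19, 88 and 24 in IHC replicates 1 to 6 and 13, 15, 20, 4, 16 and 13 in OHC replicates 1 to 6. Only IHC replicate 4, at 19, fell inside the OHC range, and the log2 fold change on the fitted scale was -2.41 ± 0.92 (edgeR adjusted p = 0.128). For mt-Nd4l the counts were 68, 24, 12, 9, 35 and 11 in IHCs and 7, 11, 6, 5, 6 and 12 in OHCs and the log2 fold change was -2.41 ± 0.93 (edgeR adjusted p = 0.130). Counts of mt-Atp6 were 239 to 467 in IHCs and 117 to 327 in OHCs (log2 fold change -1.39 ± 0.60, edgeR adjusted p = 0.178), and those of mt-Co3 15 to 58 and 4 to 44 (-0.95 ± 0.86, edgeR adjusted p = 0.557). The untested mt-Atp8 had 0 to 25 counts in IHCs and 0 to 2 in OHCs. The ratio of complex V to complex IV, which rests on mt-Atp6, differed by -1.36 on the log2 scale (exact permutation p = 0.0152, adjusted p = 0.0341), a result lost without IHC replicates 1 or 5 or OHC replicates 1, 4 or 6 at adjusted p = 0.0536.

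**Figure D5:**
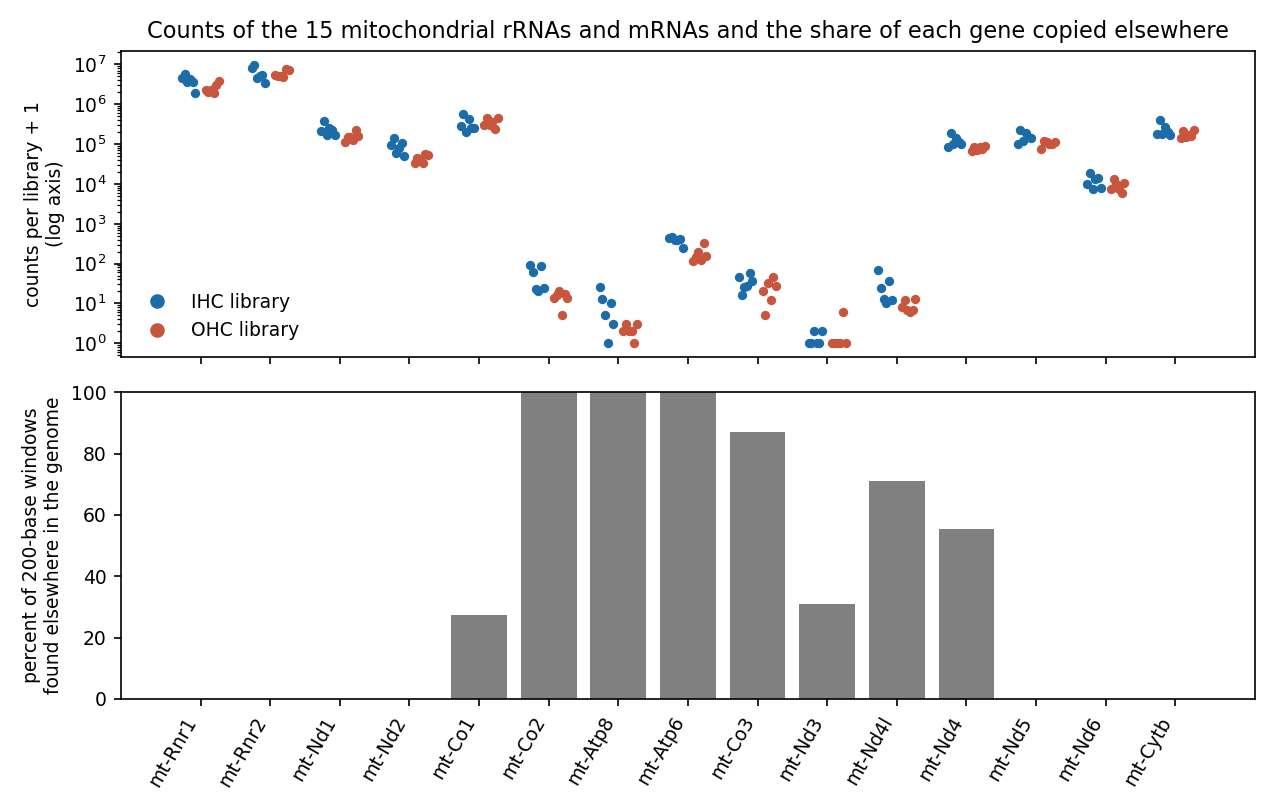
Upper panel, counts plus 1 on a log axis for the 2 rRNAs and 13 mRNAs in genome order, with a point for each IHC and OHC library. Lower panel, percent of the 200-base windows touching each gene that occur identically elsewhere in the genome. The 6 genes from mt-Co2 to mt-Nd4l hold 0 to 467 counts per library and have 31.1% to 100% of their windows elsewhere, and the other 9 genes hold at least 5885 counts.

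Of the 22 tRNAs, 20 had 0 counts in all 12 libraries, and mt-Tl1, the leucine tRNA after mt-Rnr2, had 1 count in each of 2 IHC libraries. The genes are 59 to 75 bases long, shorter than a read of 100 bases, and 8 of them lie on the light strand. A read pair over such a gene also lies over its neighbours and is assigned to 1 gene only where the others do not match, so 0 counts do not show that a tRNA is absent. On the circle, mt-Tp and mt-Tf border the 877 unannotated bases of the control region, where replication and transcription start, mt-Tp at one end and mt-Tf at the other, and elsewhere the unannotated sequence beside a tRNA is 32 bases at most. The phenylalanine tRNA mt-Tf had 0 counts in all 12 libraries. It starts at base 1 of the linear chrM sequence, so a read that runs into it from the control region cannot align whole. Its contrast with mt-Tp can therefore not be read as a difference between the tRNAs. mt-Tp was the only tRNA with more than 1 count in a library, at 73 to 402 counts in IHCs (median 220) and 98 to 344 in OHCs (median 242). The groups overlapped across their whole range, and the fitted log2 fold change was -0.22 ± 0.71 (edgeR adjusted p = 0.887). Relative to the mRNAs, tRNA counts differed by 0.51 on the log2 scale (exact permutation p = 0.245, adjusted p = 0.314). Fragments of the control region that reach into mt-Tp cannot be told apart from those of the tRNA in a count per gene.

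Among nuclear genes that act on the mitochondrial genome, few were called. Of 49 genes for its replication, transcription, RNA processing, RNA stability and translation, 46 were tested and 1 was called, Polg, the catalytic subunit of the mitochondrial DNA polymerase, higher in IHCs, where 3.81% of all genes were. Its level was 42.0 ± 14.6 CPM in IHCs and 14.2 ± 5.19 in OHCs without overlap between the groups, a log2 fold change of -1.56 ± 0.39 (edgeR adjusted p = 0.0186). Next by p were Fastkd2, of a family of mitochondrial RNA-binding proteins, at 0.377 ± 0.345 and 2.99 ± 1.73 CPM without overlap between the groups (2.96 ± 1.007, edgeR adjusted p = 0.0868), and its relative Fastkd1 (1.72 ± 0.68, edgeR adjusted p = 0.144). For the mitochondrial RNA polymerase Polrmt the levels were 21.8 ± 22.8 and 6.33 ± 4.50 CPM (-1.78 ± 0.74, edgeR adjusted p = 0.165). The exact test of edgeR also called Fastkd2 higher in OHCs, where 3.91% of all genes were. DESeq2 called 4 genes of 48, Polg higher in IHCs and Fastkd1, Fastkd2 and Fastkd5 higher in OHCs, beside 7.92% and 9.4% of all genes. The median log2 fold change of the list was 0.05, with 22 of the 46 genes below 0.

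In the edgeR fit 0 of 7 tested regulators of mitochondrial biogenesis and 0 of 77 tested mitochondrial ribosomal protein genes were called, where 6.26% of all genes were. At an unadjusted p under 0.05 there were 0 regulators, and 7 ribosomal protein genes higher in IHCs and 2 higher in OHCs, where 12.4% and 9.36% of all genes were. DESeq2 called 0 of 8 regulators, and 3 of 77 ribosomal protein genes higher in IHCs and 2 higher in OHCs, beside 7.92% and 9.4% of all genes. The lowest p of the regulators was that of Pprc1, a coactivator (log2 fold change -1.28 ± 0.63, edgeR adjusted p = 0.240), followed by Nrf1 and Gabpa (-0.95 ± 0.64 and 0.35 ± 0.25). Among ribosomal proteins the lowest were Mrpl28 (-1.99 ± 0.61, edgeR adjusted p = 0.0571), Mrpl54 (-1.58 ± 0.52) and Mrpl49 (1.28 ± 0.44). Their median log2 fold change was 0.12, while both mitochondrial rRNAs had values below 0.

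The nuclear-encoded subunits of the respiratory chain gave a comparison within the same complexes. Of 75 genes tested, 2 were called higher in IHCs, the ATP synthase subunit Atp5mc1 (log2 fold change -1.52 ± 0.36) and the complex I subunit Ndufs7 (-1.46 ± 0.39), with edgeR adjusted p = 0.0137 and 0.0309, where 3.81% of all genes were. DESeq2 called 4 of 70 higher in IHCs, adding the complex I subunits Ndufa6 and Ndufa7, where 7.92% of all genes were. The median of the 75 genes was -0.23 against -0.82 for the 14 mitochondrial genes and -0.04 for all genes. Counts of mt mRNA per count of nuclear-encoded respiratory chain mRNA were 7.17, 7.22, 4.36, 7.10, 5.98 and 5.99 in IHCs and 2.99, 7.16, 4.96, 4.59, 3.88 and 4.66 in OHCs. OHC replicate 2 reached the IHC level and IHC replicate 3 the OHC level, and the log2 difference of -0.45 did not pass the threshold (exact permutation p = 0.0584, adjusted p = 0.105). Without IHC replicate 3 or without OHC replicate 2 it passed, at -0.55 and -0.58 with adjusted p = 0.0429 and 0.0390.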

How the data were processed

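RNA-seq of 6 IHC and 6 OHC pools was analysed, with groups and replicate numbers taken from the sample titles. The files hold the numbers of reads on each gene as the authors deposited them, raw counts that were not normalized. Per the study's methods and the submitters' processing notes, reads were trimmed with Trimmomatic, aligned with STAR in 2 passes to GRCm39 and counted with HTSeq in its intersection-nonempty mode on GENCODE vM27. Versions and strand setting are not given in the sources used here. If strand was ignored, reads of genes on opposite strands cannot be told apart. Libraries were made at 2 facilities with no map of samples to them.

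The 37 members and the gene lists were chosen with earlier results of these data known. Genes passing filterByExpr (minimum count 10, minimum total 15) were normalized by TMM and tested with glmQLFit and glmQLFTest of edgeR 4.0.16 (R 4.3.3, limma 3.58.1), with Benjamini-Hochberg adjustment over 13269 genes and a threshold of 0.05. DESeq2 1.42.0 was an alternative. CPM has no pseudocount. Shares and ratios were compared by exact permutation of libraries (Python 3.11.15, numpy 2.4.6, pandas 2.3.3, scipy 1.17.1), adjusted over 4 shares and 9 ratios. The make-up of the mRNA pool is given without a test, since its parts are the members themselves. The tests were tested on simulated data. HTSeq's 5 summary lines were left out of totals: reads without a feature were 9.32% to 15.9% of lines in IHC files and 13.8% to 33.3% in OHC files.

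Coordinates, gene spans and sequences come from GRCm39 with GENCODE vM39, which matched 54749 of the 55416 identifiers (98.8%). Windows of 100 and 200 bases of chrM were searched in the genome on both strands. Every one of the 37 genes is accounted for. Single values of every library are given for the rRNAs, called genes and the mRNAs with the 2 highest and 2 lowest log2 fold changes, and nuclear genes are named when called, or otherwise the 3 with the smallest p. The pseudogenes and the 36 pairs were chosen after values were seen. Counts include copies made by amplification, so depth gives counting error only and errors are those between pools. P-values measure the spread between these pools.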

Additional observations from a re-analysis of the deposited data

Results flagged for a closer look

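Among 68 groups of 6 libraries (CPM, shares, ratios and parts of the mRNA pool of the abundant members), 8 had a library whose gap to its nearest neighbour exceeded 0.625 of the group's range. Chance gives about 1 in 20 groups.

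IHC replicate 1 gave 3 of these values. Its CPM of mt-Rnr2 was 517573 against 92104 to 239381 in the other IHC libraries, its CPM of mt-Atp6 was 28.97 against 6.51 to 12.5, and its CPM of mt-Nd4l was 4.45 against 0.227 to 1.07. The same library held 18.6% nuclear rRNA and had a TMM factor of 0.486, which enlarges every CPM of it, and the part of this in the values was not tested.

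OHC replicate 5 gave 4 values, all of mRNAs or their ratios. Its mt-Nd1 took 25.96% of the mt mRNA counts against 13.7% to 17.3% in the other OHC libraries. The log2 ratio of mt-Cytb to complex IV was -0.59 against -1.09 to -0.97, and that of mt-Nd5 and mt-Cytb to mt-Nd1 and mt-Nd2 was -0.12 against 0.50 to 0.78. Its CPM of mt-Atp6 was 10.9 against 2.52 to 5.35. Nuclear rRNA in this library was 5.19%, within the OHC range.

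IHC replicate 3 had a log2 ratio of mt mRNAs to nuclear-encoded respiratory chain mRNAs of 2.13, against 2.58 to 2.85 in the other IHC libraries.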

How the results depend on the processing

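The 4 shares missed the threshold under every alternative run, with the same direction except for the tRNAs, whose difference of 8.4e-05 percentage points became -3.0e-05 with rRNA left out of the denominator and ran from -7.2e-06 to 0.00017 with each library left out. No pairing of the pools by replicate number was seen: same-numbered deviations correlated at -0.03 to 0.02, all under 0.1, and 1 of 12 libraries correlated best with its own number. These correlations cannot show that same-numbered pools came from different animals. The paper says of its ATAC-seq pools that each pup gave both cell types, and it does not say so of these RNA pools. With the replicate block the log2 differences of 0.60 (mt-Rnr2 to mt-Rnr1), -0.75 (complex I to IV), -0.46 (mt-Cytb to complex IV) and -1.36 (complex V to IV) had an adjusted p of 0.0703, where the smallest raw p of 64 sign changes is 0.03125, 2 members were called (mt-Nd2 and mt-Nd4) and mt-Tp turned to 0.14. No other alternative ended the call of mt-Rnr2 to mt-Rnr1.

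Averaging the log2 counts of genes in place of summing counts gives the near-0 mRNAs equal weight, and under it complex I to IV turned to 0.15, mt-Cytb to complex IV to 0.44 and mt-Nd6 to the other mRNAs to 0.41. Complex V to IV was -0.63 and lost its call, while rRNAs to mRNAs (0.45), tRNAs to mRNAs (0.74) and mt mRNAs to nuclear mRNAs (-0.79) passed the threshold. With only the 5 mRNAs that have no copied window, an alternative chosen after seeing the counts, mt-Nd6 to the others turned to 0.16, mt mRNAs to nuclear mRNAs passed at -0.66, and the part of the mRNA pool, OHC minus IHC, was 0.228 percentage points for mt-Nd6, 4.76 for mt-Cytb, -0.25 for mt-Nd5 (-1.93 with all mRNAs) and -1.35 for mt-Nd1 (-3.17); ratios to complex IV have no value there.

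Members called higher in IHCs numbered 3 in the edgeR quasi-likelihood test, where 3.81% of all genes were called higher in IHCs. They numbered 4 in the exact test (mt-Rnr1 added), beside 5.66% of all genes, and 7 in DESeq2, beside 7.92%. Without the low-count filter they numbered 5 (mt-Nd1 and mt-Rnr1 added), beside 3.25%, and with a library left out 0 to 4. Of the nuclear genes for mitochondrial expression, biogenesis and ribosomal proteins (46, 7 and 77 tested), 1 was called higher in IHCs and 0 in OHCs. Of all genes 3.81% and 2.44% were. The exact test called 3 and 1, beside 5.66% and 3.91% of all genes, and 2 ribosomal protein genes were among its IHC calls. DESeq2 (48, 8 and 77 tested) called 4 and 5, beside 7.92% and 9.4%, with 3 and 2 of them ribosomal protein genes. Without the filter 2 were called in IHCs, beside 3.25% of all genes. With a library left out 1 to 3 and 0 to 2 were called.

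With each library left out, log2 differences ran from -0.0012 to 0.22 for rRNAs to mRNAs, from -0.91 to -0.68 for complex I to IV, from -0.53 to -0.40 for mt-Cytb to complex IV, from -1.66 to -1.23 for complex V to IV, from -0.12 to 0.044 for mt-Nd6 to the others, from 0.20 to 0.41 for mt-Nd5 and mt-Cytb to mt-Nd1 and mt-Nd2 and from -0.58 to -0.33 for mt mRNAs to nuclear mRNAs. Log2 fold changes ran from -0.58 to 0.090 for mt-Rnr2, from -0.30 to 0.10 for mt-Co1 and from -0.45 to 0.23 for mt-Tp, each turning, among these fits, only without IHC replicate 1. The OHC Spearman rho of rRNA and mRNA shares, 0.26, was -0.14 with all lines in the denominator.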
